A study of Mus musculus with 10 samples.

Results

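Interferon response genes were measured in liver sinusoidal endothelial cells, the fenestrated endothelium that lines the liver's capillaries, of mice with an endothelial deletion of Gata4 and of sibling controls. The members were chosen by name, 38 genes known to be induced by interferons, and 36 of them had a row among the 24704 genes measured. Of these, 28 are known mainly from the response to type I interferons and 8 from the response to interferon gamma. The type I gene Ifi44 and the gamma gene Gbp6 had no row and were not analysed here.

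The group labelled Gata4-LSEC-KO, called knockout below, held 5 arrays. These mice joined a floxed Gata4 allele (STOCK Gata4tm1.1Sad/J) to the driver C57BL/6N-Tg(Clec4g-icre)1.1Sgoe, in which control sequences of Clec4g, a lectin gene of sinusoidal endothelium, direct a Cre recombinase. The control group held 5 arrays of siblings labelled WT, and whether these carried the driver or the floxed allele remains unstated in the labels. Each array held RNA from the pooled livers of 3 mice, taken after collagenase perfusion, a Nycodenz gradient and magnetic selection with CD146 beads, and neither age nor sex is given. All values below are the authors' log2 RMA values, and a difference is knockout minus control on that log2 scale.

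Interferons are cytokines, and cells release those of types I and III after sensing foreign nucleic acid. Type I interferons (the alpha and beta families) bind the receptor formed by IFNAR1 and IFNAR2, and the kinases JAK1 and TYK2 then activate a complex that includes STAT2 and IRF9 and binds the interferon-stimulated response element of target promoters. Interferon gamma, made by T and NK cells, binds IFNGR1 and IFNGR2 and acts through JAK1 and JAK2 on genes with gamma-activated sites, and type III interferons (lambda) use IFNLR1 with IL10RB. Sinusoidal endothelial cells take up blood-borne particles and antigens and are known to sense viral nucleic acid. The targets include direct antiviral proteins, sensors that amplify the response, transcription factors, and the GTPases that attack intracellular pathogens.

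Promoter sequence was not used to choose the members. In RefSeq promoter windows of GRCm38.p6, from 250 bases before to 50 after each start, 27 of the 36 measured members had a window. The core of the response element was searched on both strands as GAAA, any 2 bases and GAAA again, and it was present in a window of 15 of the 27 (55.6%), against 1079 of the 27025 genes in the table (3.99%). The gamma-activated site was searched as TTCNNNGAA, which reads the same on the opposite strand, and was found for 9 of the 27 (33.3%), against 9.55% of all genes. By class, the response element core was found for 9 of 20 type I members (45.0%) and 6 of 7 gamma members (85.7%), and the gamma-activated site for 5 of 20 (25.0%) and 4 of 7 (57.1%). A match describes these letters and does not show that a factor binds there.

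The stretches below were chosen for the genes whose values are described next, and each runs 5′ to 3′ on the gene's own strand, upstream of the start. Capitals mark the matches, which overlap in Isg15, Gbp3 and Socs1, and Igtp carries a gamma-activated site and a response element core side by side. For Irf1 the capitals are a gamma-activated site. Socs1 and Ifitm2 are not members and are shown because they passed the test described below.
Isg15: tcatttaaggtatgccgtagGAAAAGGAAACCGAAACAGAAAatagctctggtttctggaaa
Ifit1: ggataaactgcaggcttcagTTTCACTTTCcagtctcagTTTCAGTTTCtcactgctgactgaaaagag
Ifit3: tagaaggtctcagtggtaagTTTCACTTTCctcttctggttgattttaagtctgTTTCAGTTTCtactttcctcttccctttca
Rsad2: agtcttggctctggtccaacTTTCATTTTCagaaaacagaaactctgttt
Gbp2: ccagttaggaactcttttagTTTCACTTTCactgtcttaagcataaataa
Gbp3: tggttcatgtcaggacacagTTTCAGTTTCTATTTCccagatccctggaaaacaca
Irf1: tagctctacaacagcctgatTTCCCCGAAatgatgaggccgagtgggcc
Igtp: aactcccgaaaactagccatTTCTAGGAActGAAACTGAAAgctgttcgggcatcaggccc
Socs1: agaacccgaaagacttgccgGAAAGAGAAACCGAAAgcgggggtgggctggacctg
Ifitm2: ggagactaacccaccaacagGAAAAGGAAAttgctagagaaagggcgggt

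These stretches lie at chr4:156200855-156200916 (Isg15, minus strand), chr19:34640765-34640833 (Ifit1, plus strand), chr19:34583353-34583436 (Ifit3, plus strand), chr12:26456543-26456592 (Rsad2, minus strand), chr3:142620584-142620633 (Gbp2, plus strand), chr3:142559979-142560034 (Gbp3, plus strand), chr11:53769904-53769952 (Irf1, plus strand), chr11:58199491-58199551 (Igtp, plus strand), chr16:10785584-10785639 (Socs1, minus strand) and chr7:140955978-140956027 (Ifitm2, minus strand) of GRCm38.p6. The printed part begins between -176 and -65 relative to the start. Ifit1 and Ifit3 each hold 2 separate copies of the core, and Ifit2, which neighbours them on the chromosome, had no core match in its windows.

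Of 24704 genes, 529 passed an adjusted p of 0.05 in limma with Benjamini-Hochberg adjustment over all genes, which is 2.14% (1.3% higher and 0.846% lower in knockout). The 8 defining markers of sinusoidal endothelium, Stab2 among them, all had means above the array median. Of these, 0 were higher and 2 lower in knockout, Clec4g (1.69-fold, adjusted p = 0.0207 by limma) and Mrc1 (1.48-fold, adjusted p = 0.044). Clec4g is the gene whose control sequences direct the Cre recombinase. The summed level of all 8, as log2, ran from 13.56 to 14.08 in knockout and from 14.10 to 14.43 in control. The groups did not overlap in that sum. The Gata4 probe set read 8.35 to 8.90 in knockout and 8.53 to 8.90 in control (adjusted p = 0.742 by limma), and since the place of its probes relative to the deleted part is not given, it does not check the labels. Control replicate 1 stood apart, with correlations to the other arrays of 0.92 to 0.944. Of 8 neutrophil markers 4 were higher in knockout, with a summed level of 7.74 to 10.07 in knockout and 6.43 to 7.45 in control. Of 8 monocyte markers 3 were higher, Ly6c2, Ccr2 and Fn1 (summed level 8.29 to 9.10 in knockout, 7.14 to 7.70 in control). Fn1, the fibronectin gene, gave the largest part of the monocyte sum on every array (7.68 ± 0.47 in knockout, 6.21 ± 0.40 in control). Chil3, F13a1, Ms4a4c, Cx3cr1 and Plac8 of that list did not pass. No marker passed among 8 of plasmacytoid dendritic cells (8.35 to 8.73 in knockout, 8.13 to 8.60 in control), 11 of T and NK cells (6.70 to 7.03 in knockout, 6.56 to 7.60 in control) or 10 of Kupffer cells (10.58 to 11.60 in knockout, 9.27 to 11.81 in control). Tcf4 gave the largest part of the plasmacytoid sum on every array, and 5 of those 8 markers had means below the array median. Tcf4 averaged 8.19 ± 0.20 in knockout and 7.70 ± 0.08 in control, and its groups did not overlap (adjusted p = 0.0526 by limma). Of the other lists, 1 of 8 markers of conventional dendritic cells, 1 of 6 of B and plasma cells and 1 of 6 of cholangiocytes were higher, of 7 of hepatocytes 1 was higher and 1 lower, and of 8 of stellate cells 0 passed. The summed level of the cholangiocyte list was 7.70 to 9.93 in knockout and 6.44 to 7.57 in control, and that of B and plasma cells 6.28 to 6.84 in knockout and 5.96 to 6.19 in control, so the groups did not overlap in either. Of 8 pan-endothelial markers 1 was higher, Mcam, the gene of the CD146 antigen used for the bead selection, at 9.01 ± 0.10 in knockout and 7.77 ± 0.19 in control (SD, n = 5; 2.36-fold, adjusted p = 0.000242 by limma). RMA values have no zero, so none of these can be called absent, and the part of these cells in the values below was not tested.

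None of the 36 members passed the test. Of the 28 type I members, 0 were higher and 0 lower by limma at an adjusted p of 0.05, and of the 8 gamma members likewise 0 and 0. At an unadjusted p under 0.05 there were 3 of 36 members, Ifit2, Gbp2 and Gbp3, where 13.6% of all genes reached that level. In 0 of 36 members were the groups free of overlap, against 4.93% of all genes (2.55% higher and 2.37% lower in knockout). Differences scattered around 0, with 16 members above and 20 below, a median of -0.02 for type I and -0.01 for gamma members, and -0.02 for all genes. In these pooled cells, fewer cells of a type and less RNA per cell cannot be told apart.

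A p that misses the threshold does not show equal expression, so the size of difference that the arrays allow is given as well. The 95% interval of limma lay within 1 log2 unit of 0, a change of 2-fold, for 34 of 36 members (94.4%, and 89.9% of all genes), the exceptions being Ifit3 and Rsad2. It lay within 0.5 log2 units, a 1.41-fold change, for 20 of 36 (55.6%, and 51.8% of all genes). The measured difference exceeded 0.5 in size for 1 member, Ifit3 (2.78% of members, and 8.83% of all genes). The within-group SD had a median of 0.25 log2 units over the members and 0.24 over all genes. No filter on low values was used, and 34 of the 36 members had a mean above the array median, Mx1 and Mx2 being below it.

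**Figure D1:**
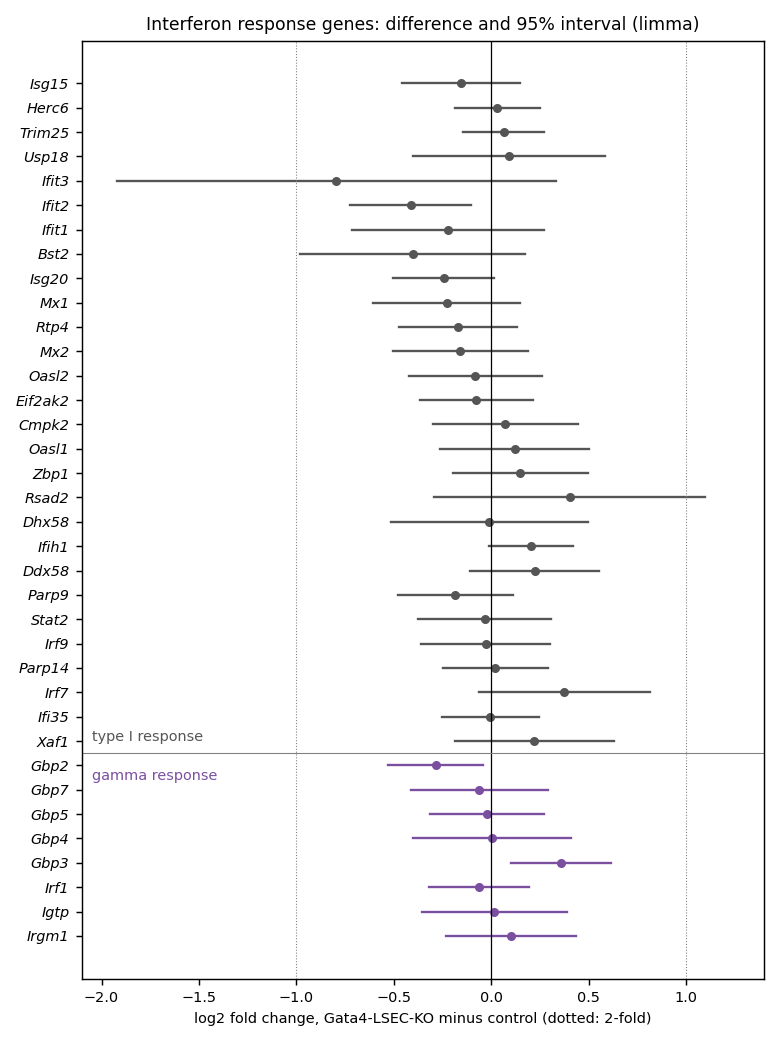
Difference in log2 RMA value, knockout minus control, for each of the 36 measured members (points), with its 95% interval from limma (bars), type I members above the line and gamma members below it. Dotted lines mark 2-fold, and the intervals of Ifit3 (-1.92 to 0.33) and Rsad2 (-0.30 to 1.10) cross one of them.

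ISG15, a ubiquitin-like protein that is attached to other proteins, and its enzymes differed by -0.16 to 0.09 and none of the 4 passed. Isg15 read 4.49, 4.70, 4.51, 5.01 and 4.48 in knockout replicates 1 to 5, against 5.06, 4.69, 4.71, 4.58 and 4.94 in control replicates 1 to 5. The groups overlapped across almost their whole range, and the difference was -0.16 ± 0.14 (SE). Herc6, the ligase that attaches ISG15 in mice, averaged 6.22 ± 0.09 in knockout and 6.19 ± 0.13 in control (SD, n = 5), with an interval of -0.19 to 0.25. Trim25, a ligase that acts on the RNA sensor RIG-I, averaged 7.03 ± 0.12 in knockout and 6.96 ± 0.07 in control. Usp18, the protease that removes ISG15 and dampens the type I receptor, lay between 4.29 and 5.76 in knockout and between 5.03 and 5.23 in control. Its spread in knockout came mainly from replicate 1, the lowest, while the controls were tight (SD 0.56 in knockout and 0.08 in control).

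The IFIT proteins, which bind viral RNA with altered ends, were the role group with the lowest median difference, -0.41, and none of the 3 passed. Ifit2 read 4.63, 4.78, 5.08, 5.21 and 5.00 in knockout replicates 1 to 5, and 5.33, 5.11, 5.57, 5.19 and 5.57 in control replicates 1 to 5. Among the knockout arrays, replicate 4 alone reached into the control range. The difference was -0.41 ± 0.14 (95% interval -0.73 to -0.10), with an adjusted p of 0.200 by limma. Without knockout replicate 4 the groups no longer overlapped, and the call stayed absent.

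Ifit1 and Ifit3 were set by a single array. Ifit3 read 5.25, 4.57, 5.04, 5.20 and 5.52 in knockout replicates 1 to 5, and 8.26, 5.24, 5.30, 5.40 and 5.37 in control replicates 1 to 5. Ifit1 read 5.32, 5.28, 5.54, 5.48 and 5.42 in knockout, and 6.61, 5.49, 5.35, 5.33 and 5.36 in control, in the same order. Control replicate 1 was the high array for both, 7.63-fold above the mean of the other 4 controls for Ifit3 and 2.34-fold for Ifit1, while those 4 lay between 5.24 and 5.40 for Ifit3 and between 5.33 and 5.49 for Ifit1. With all arrays the differences were -0.80 ± 0.51 for Ifit3 and -0.22 ± 0.22 for Ifit1. Without control replicate 1 they were -0.21 and 0.02. A near-identical neighbour of Ifit3, Ifit3b, had no row here, so its share in the Ifit3 probe set is uncertain.

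**Figure D2:**
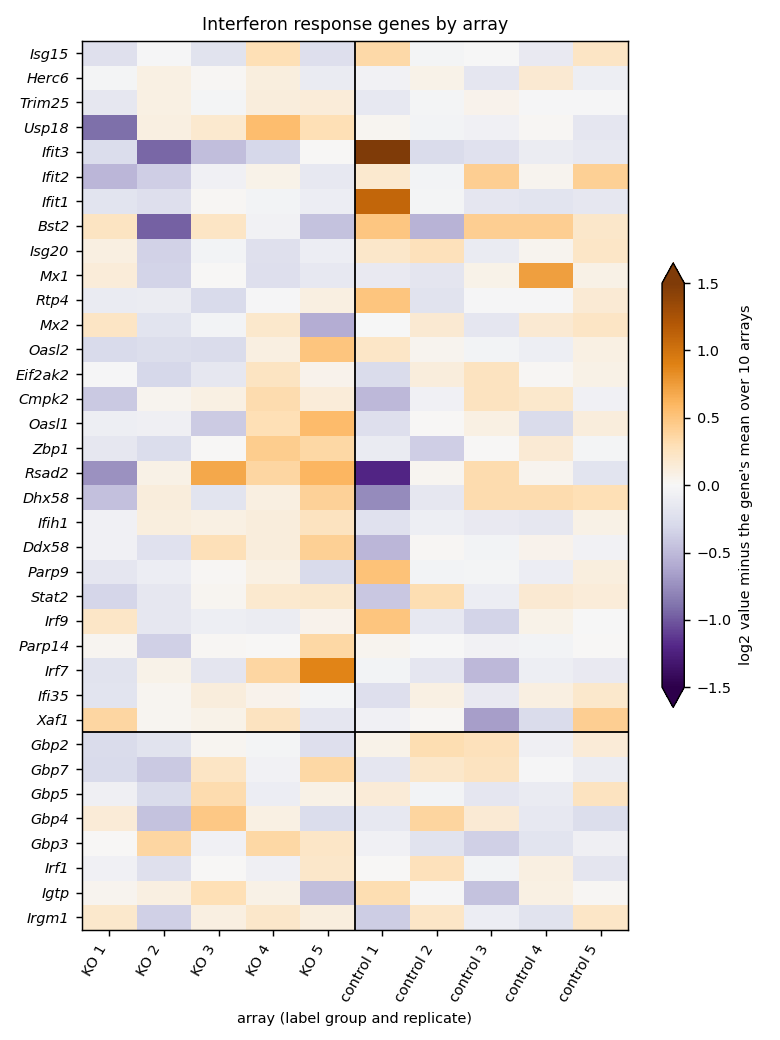
Each cell is the log2 RMA value of a member (rows, type I above the horizontal line) on an array (columns, knockout left and control right of the vertical line) minus that gene's mean over the 10 arrays, with colours saturated at 1.5 log2 units. Control replicate 1 holds the highest Ifit1 and Ifit3 values (6.61 and 8.26) and the lowest Rsad2 value (5.73), and no block of rows separates the groups.

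Direct antiviral effectors did not pass either, with 4 of 11 above 0 and 7 below. Rsad2 (viperin), an enzyme that makes a chain-terminating nucleotide, read 6.22, 7.02, 7.63, 7.32 and 7.55 in knockout replicates 1 to 5, and 5.73, 6.98, 7.27, 6.99 and 6.76 in control replicates 1 to 5. Its lowest value, in control replicate 1, was 2.41-fold below the mean of the other controls, so this array was high for Ifit3 and low for Rsad2. The difference was 0.40 ± 0.32, and 0.15 without that array. Cmpk2, a nucleotide kinase gene next to Rsad2, averaged 6.12 ± 0.27 in knockout and 6.05 ± 0.30 in control (SD, n = 5). Bst2 (tetherin), which holds budding virions at the cell surface, lay between 7.77 and 8.98 in knockout and between 8.19 and 9.23 in control, with a difference of -0.40 ± 0.26. The lowest Bst2 values came from replicate 2 of each group.

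Isg20, an RNA exonuclease, read 5.34, 4.89, 5.19, 5.00 and 5.13 in knockout replicates 1 to 5, and 5.43, 5.51, 5.11, 5.28 and 5.45 in control replicates 1 to 5. Control replicates 3 and 4 lay inside the knockout range, and the adjusted p was 0.404 by limma (difference -0.25 ± 0.12). Eif2ak2 (PKR), the kinase that stops translation on double-stranded RNA, differed by -0.08 ± 0.13. The oligoadenylate synthetase-like genes Oasl1 (0.12 ± 0.18) and Oasl2 (-0.08 ± 0.16) had opposite signs, and knockout replicate 5 was the highest of its group for both, at 4.76 and 7.11. Zbp1, a sensor of Z-form nucleic acid that can start necroptosis, differed by 0.15 ± 0.16, and Rtp4, a chaperone of G protein-coupled receptors, by -0.17 ± 0.14. The GTPase genes Mx1 (1.64 to 2.11 in knockout, 1.79 to 2.70 in control) and Mx2 (2.55 to 3.35 in knockout, 2.95 to 3.35 in control) were dim. Many laboratory mouse strains are known to carry a defective Mx1 allele.

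The cytoplasmic RNA helicases that detect viral RNA and start interferon production lay slightly above 0 or at it. Ifih1 (MDA5) read 6.823, 7.005, 6.976, 7.015 and 7.138 in knockout replicates 1 to 5, and 6.678, 6.806, 6.757, 6.729 and 6.964 in control replicates 1 to 5. Control replicate 5 was the control array inside the knockout range. The difference was 0.20 ± 0.10, with an interval of -0.01 to 0.42 and an adjusted p of 0.401 by limma. Ddx58 (RIG-I) lay between 7.04 and 7.67 in knockout and between 6.73 and 7.30 in control, a difference of 0.22 ± 0.15. Its low control value was that of replicate 1. Dhx58 (LGP2), the regulator of the other two, differed by -0.01 ± 0.23.

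The transcription factors that carry the type I signal were close to level. Stat2 averaged 6.30 ± 0.22 in knockout and 6.34 ± 0.29 in control, and its partner Irf9 averaged 6.22 ± 0.15 in knockout and 6.25 ± 0.31 in control (SD, n = 5). Irf7, the factor that amplifies type I interferon production, read 6.67, 6.94, 6.70, 7.25 and 7.77 in knockout replicates 1 to 5, and 6.84, 6.71, 6.37, 6.79 and 6.75 in control replicates 1 to 5. Knockout replicates 4 and 5 were high and replicates 1 and 3 lay within the control range, and the difference of 0.37 ± 0.20 had an adjusted p of 0.467 by limma. The poly-ADP-ribose polymerase family genes Parp9 (-0.18 ± 0.13) and Parp14 (0.02 ± 0.12) did not pass. Of the remaining type I genes, Ifi35 differed by -0.01 ± 0.11 and the apoptosis-linked Xaf1 by 0.22 ± 0.19.

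The gamma members were likewise without a call. The guanylate-binding proteins are GTPases that coat the vacuoles of intracellular pathogens, and 2 of the 5 measured ones, Gbp2 and Gbp3, had an unadjusted p under 0.05, with opposite signs. Gbp3 read 6.25, 6.61, 6.19, 6.61 and 6.47 in knockout replicates 1 to 5, and 6.19, 6.04, 5.90, 6.05 and 6.17 in control replicates 1 to 5. Its groups met between knockout replicate 3 and control replicate 1, and the difference of 0.36 ± 0.12 (interval 0.10 to 0.61) had an adjusted p of 0.179 by limma. Gbp2 read 6.05, 6.12, 6.35, 6.29 and 6.08 in knockout, and 6.38, 6.63, 6.60, 6.24 and 6.47 in control, in the same order. Control replicate 4 alone fell inside the knockout range, and the difference of -0.29 ± 0.11 (interval -0.53 to -0.04) had an adjusted p of 0.270. The related genes Gbp5 (-0.02 ± 0.13) and Gbp7 (-0.06 ± 0.16) lay close to 0, as did Gbp4 (0.00 ± 0.18). These genes are close paralogues, so probe sets of the family may share signal.

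Irf1, the transcription factor that gamma interferon induces through the site printed above, averaged 7.22 ± 0.16 in knockout and 7.28 ± 0.17 in control (SD, n = 5), with an interval of -0.32 to 0.19. The immunity-related GTPases showed no call. Irgm1, a regulator of the family, read 6.66, 6.12, 6.56, 6.67 and 6.58 in knockout replicates 1 to 5, and 6.09, 6.69, 6.36, 6.26 and 6.68 in control replicates 1 to 5, so the groups covered the same range. Igtp (Irgm3) averaged 4.96 ± 0.29 in knockout and 4.95 ± 0.28 in control.

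Among themselves the members did not follow a single array order. The mean over the 28 type I members was 5.74, 5.72, 5.87, 6.01 and 5.99 in knockout replicates 1 to 5, and 5.96, 5.84, 5.86, 5.93 and 5.96 in control replicates 1 to 5. The knockout arrays thus spread around the control arrays, with an SD of 0.14 in knockout and 0.055 in control. Within the knockout group, replicate 5 was highest for 11 and replicate 4 for 8 of the 28, while replicates 1 and 2 were lowest for 11 and 10. Over all genes these shares were 26.6% and 16.5% for highest, and 21.3% and 21.2% for lowest. The mean over the 8 gamma members was 5.94, 5.80, 6.15, 6.04 and 5.98 in knockout, and 5.95, 6.12, 5.92, 5.90 and 5.98 in control, in the same order. Its highest knockout array, replicate 3, was not the highest of the type I mean. The 15 members with a response element core in their window had a median difference of -0.035 and the 12 without one 0.012.

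The rest of the pathway was read from 7 lists of genes outside the members, 163 genes of which 151 had a row. Of these 151, 0 were higher and 2 lower in knockout by limma, against 1.3% and 0.846% of all genes. The 2 were Socs1 and Ifitm2. At an unadjusted p under 0.05 there were 22, against 13.6% of all genes, and the median difference was -0.02. Groups did not overlap in 12 of the 151, 3 higher and 9 lower, against 4.93% of all genes (2.55% higher and 2.37% lower).

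Socs1, a feedback inhibitor that is induced by interferons and blocks JAK kinases, was 1.65-fold lower. It read 4.60, 4.66, 4.87, 4.78 and 4.58 in knockout replicates 1 to 5, and 5.72, 5.26, 5.26, 5.48 and 5.39 in control replicates 1 to 5. Every knockout value lay under every control value. The difference was -0.72 ± 0.12, with an adjusted p of 0.00785 by limma, and leaving out any single array kept the call (adjusted p up to 0.0278). Among the other 16 JAK-STAT genes none passed. Jak1, the kinase common to the interferon receptors, differed by -0.37 ± 0.12 (adjusted p = 0.180), and Ptpn6 (SHP-1), a phosphatase abundant in leukocytes, by 0.60 ± 0.17 (adjusted p = 0.0994). These last 2 were chosen after their values were seen, and Ptpn6 was highest in knockout replicate 2.

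Ifitm2, a membrane protein that restricts virus entry, was 2.05-fold lower. It read 9.51, 9.29, 8.67, 9.34 and 8.59 in knockout replicates 1 to 5, and 10.73, 10.09, 10, 9.73 and 10.04 in control replicates 1 to 5. The groups did not overlap, although the highest knockout value, 9.51, came near the lowest control value, 9.73. The difference was -1.04 ± 0.22 (adjusted p = 0.0366), and 7 of the 10 single arrays ended the call when left out, namely replicates 2, 3, 4 and 5 of the knockout and 2, 3 and 5 of the control group, with adjusted p reaching 0.084. The related genes Ifitm3 (-0.13 ± 0.13) and Ifitm1 (-0.52 ± 0.31), chosen after their values were seen, did not pass. Ifitm3 read 10.22, 10.27, 9.88, 10.03 and 9.92 in knockout and 10.54, 10.09, 10.11, 10.05 and 10.17 in control, in replicate order, so its groups overlapped.

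**Figure D3:**
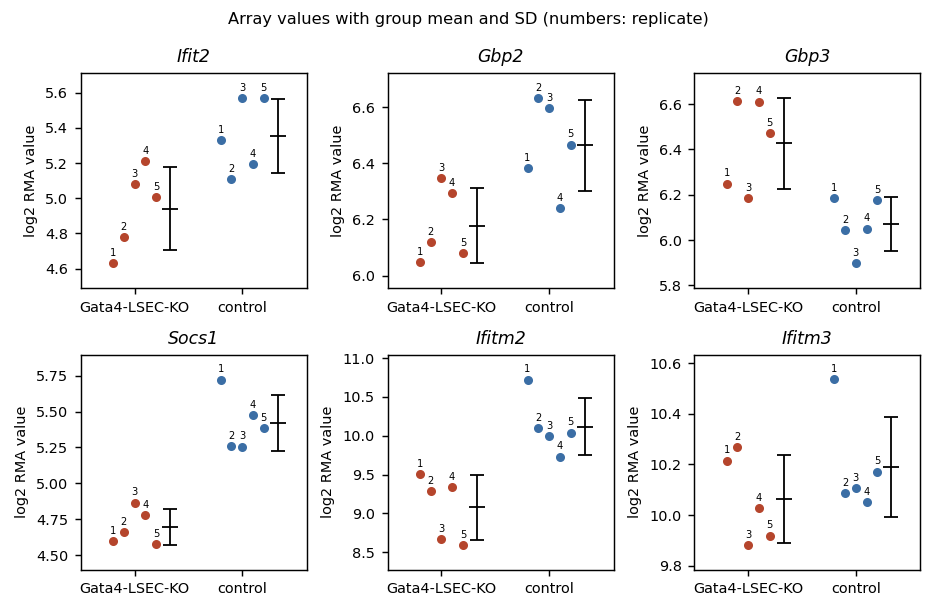
Log2 RMA values (vertical axis) of 6 genes on each array, knockout left and control right, with replicate numbers beside the points and the group mean and SD as bars. The groups are apart for Socs1 (4.58 to 4.87 in knockout, 5.26 to 5.72 in control) and Ifitm2, and meet or overlap for Ifit2, Gbp2, Gbp3 and Ifitm3.

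In the list of 48 other measured type I response genes Ifitm2 was the 1 call, with 24 genes above 0 and 24 below. Slfn2 and Slfn4, members of the schlafen family known from T cells and myeloid cells, lay above 0, by 1.05 ± 0.30 (adjusted p = 0.118) and 1.01 ± 0.30 (adjusted p = 0.125). Groups did not overlap in 5 of the 48 genes, 2 higher and 3 lower, against 4.93% of all genes. Slfn2 and Slfn4 were the 2 higher. The 3 lower were Ifitm2, Phf11b (-0.38 ± 0.11, adjusted p = 0.108 by limma) and Sp100 (-0.38 ± 0.11, adjusted p = 0.136). Slfn2, Slfn4, Phf11b and Sp100 were chosen after their values were seen. Slfn2 and Slfn4 moved beside the higher neutrophil and monocyte markers given above, whose part in these differences was not tested. Of 31 other gamma response genes 0 passed, with 12 above 0 and 19 below, a median of -0.09 and 6 at an unadjusted p under 0.05. The nearest were Casp1, the inflammasome protease, at -0.47 ± 0.11 (adjusted p = 0.0578), and the adhesion molecule Icam1 at 0.48 ± 0.13 (adjusted p = 0.0884). Casp1 passed with dim genes left out (adjusted p = 0.0422) and with array weights (adjusted p = 0.0494).

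**Figure D4:**
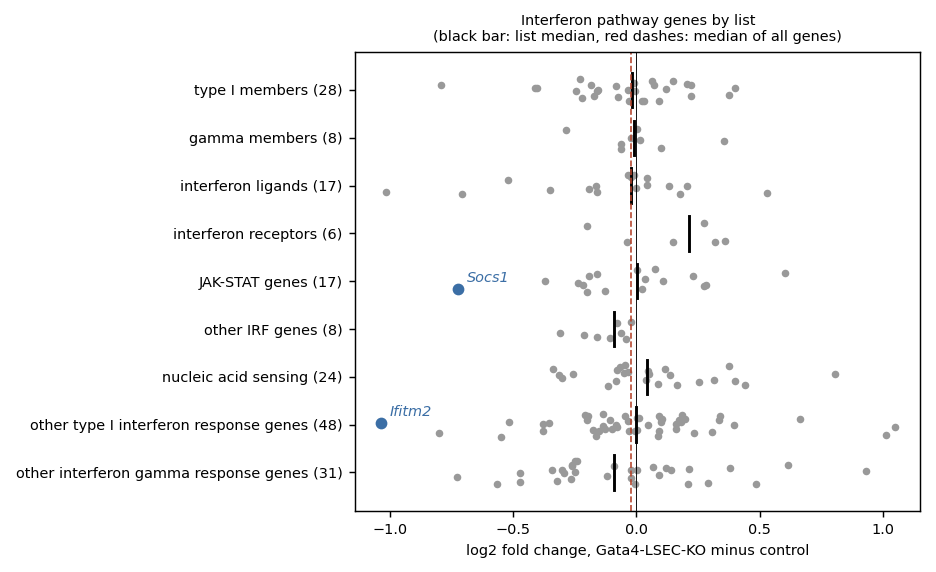
Difference in log2 RMA value, knockout minus control (horizontal axis), for each measured gene of the members and of the 7 pathway lists (rows, number of genes in brackets). Black bars are list medians, the dashed line is the median of all genes (-0.02), and the 2 larger labelled points are the genes past the threshold, Socs1 and Ifitm2.

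Receptors were measured on both sides of the pathway and none of 6 passed. Ifnar1 read 8.09, 7.95, 8.43, 8.10 and 8.24 in knockout replicates 1 to 5, and 7.36, 7.96, 7.87, 8.05 and 7.76 in control replicates 1 to 5, a difference of 0.36 ± 0.15 (adjusted p = 0.293 by limma). Its partner Ifnar2 differed the other way, by -0.20 ± 0.10 (adjusted p = 0.417). The gamma receptor chains Ifngr1 (0.27 ± 0.16) and Ifngr2 (0.15 ± 0.12) did not pass. Each of these 4 chains was far above the array median in both groups, the lowest single value being 6.83 for Ifngr1 in control replicate 1. The list of interferon regulatory factors outside the members held 8 measured genes, with the IRF2-binding proteins Irf2bp1, Irf2bp2 and Irf2bpl among them. In it 0 passed and all 8 lay below 0, by -0.31 to -0.02, as did 13627 of all 24704 genes. Irf2, a repressor of interferon targets, differed by -0.31 ± 0.11 (adjusted p = 0.221) with groups that did not overlap. Irf2bp2, its cofactor, differed by -0.21 ± 0.09 (adjusted p = 0.285). Of 24 genes of nucleic acid sensing 0 passed, the nearest being Rnaseh2b, a subunit of the ribonuclease that removes RNA from DNA (-0.30 ± 0.10, adjusted p = 0.163), and the kinase Ikbke (0.31 ± 0.11, adjusted p = 0.195).

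Interferon ligand genes were mostly dim, with 6 of 17 having a mean above the array median, and 0 of 17 passed. Ifng lay between 1.92 and 2.19 in knockout and between 1.91 and 2.22 in control, and Ifnb1 between 1.70 and 1.90 in knockout and between 1.63 and 2.15 in control. Neither reached the array median on any array, and Ifnb1 was chosen after its values were seen. Ifna11 (-0.19 ± 0.10, adjusted p = 0.439) was dimmer still, with means of 1.28 in knockout and 1.47 in control.

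A few ligand genes shared the high array of Ifit1 and Ifit3. The type III gene Ifnl3 read 4.14, 4.08, 4.33, 4.30 and 4.19 in knockout replicates 1 to 5, and 7.79, 4.52, 4.28, 4.65 and 4.88 in control replicates 1 to 5. Its neighbour Ifnl2 read 5.27 to 6.26 in knockout and 5.28 to 5.63 in control replicates 2 to 5, against 8.21 in control replicate 1. Ifna15 read 3.16 to 4.56 in knockout and 3.74 to 4.14 in those 4 controls, against 7.38 in control replicate 1. Ifna14 read 4.09 to 5.38 in knockout and 4.32 to 5.11 in those controls, against 6.63. Ifnl2, Ifna14 and Ifna15 were chosen after their values were seen. These genes belong to families of near-identical copies, so which copy the signal came from is uncertain.

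In control replicate 1, 4 of 17 ligand genes and 2 of 28 type I members lay at least 1 log2 unit above the mean of the other 4 controls, where 5.91% of all genes did. In the other 4 controls that share of all genes was 0.429% to 0.676%. The type I members as a group did not stand above the other controls on this array, with a median difference of -0.04, and the 8 gamma members were at -0.07. Irf9 (1.52-fold), Parp9 (1.45-fold) and Rtp4 (1.44-fold) were above the other controls there, and Dhx58 (1.95-fold), Cmpk2 (1.50-fold), Stat2 (1.46-fold) and Ddx58 (1.43-fold) were below them. The immunoproteasome gene Psmb9 was 2.03-fold and Psmb8 1.63-fold above, and 94.43% and 89.74% of all genes had a lower difference there. Psmb10, of the same complex, lay within the range of the other controls (8.17 against 8.04 to 8.18). These genes were chosen after their values were seen. Ifnb1 was below the other controls and Ifng within their range. Summed levels of some marker lists of other cells also stood apart on this array. The summed level of stellate cell markers was 9.08 there and 10.75 to 11.64 in the other controls. That of Kupffer cell markers was 9.27 there and 10.55 to 11.81 in the others. That of conventional dendritic cell markers was 8.67 against 9.47 to 10.70, with Cd74 as its largest part (7.76 against 9.07 to 10.50). Zbtb46 of that list was also lowest there, while Clec9a, Flt3, Cd209a and Itgax were higher there than in any other control. The summed level of monocyte markers was 7.14 there and 7.62 to 7.70 in the other controls, with Fn1 as its largest part (5.51 against 6.33 to 6.49). Ly6c2, Ccr2, F13a1 and Plac8 were also lowest there among the controls, while Chil3 was highest there. The summed level of T and NK cell markers was higher, at 7.60 against 6.56 to 7.04, with Klrb1c as its largest part (6.82 against 3.67 to 4.21). Cd8a was also highest there among the controls, while Cd3e, Nkg7 and Gzmb were lowest there. The part of these cells in the values of this array was not tested.

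**Figure D5:**
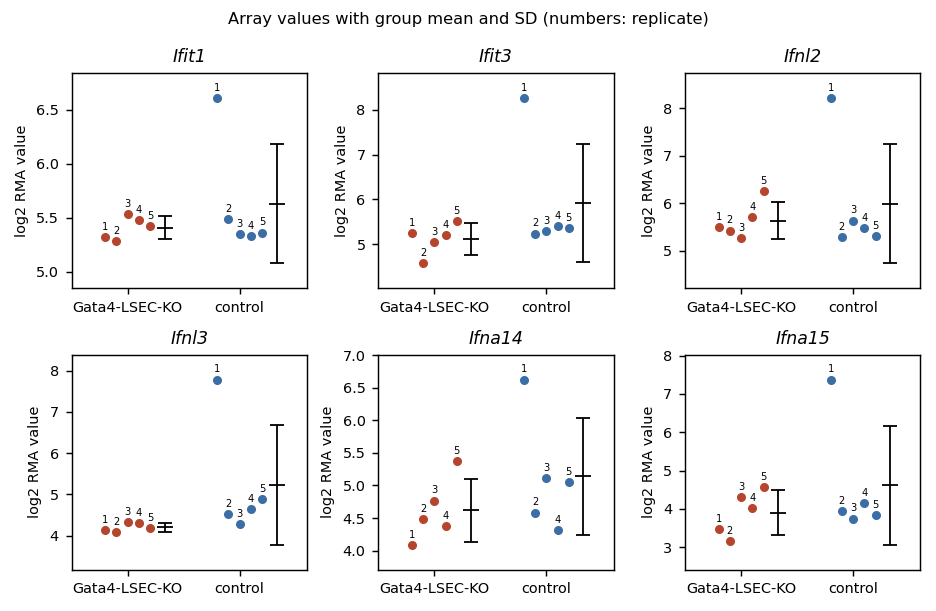
Log2 RMA values (vertical axis) of Ifit1, Ifit3 and 4 interferon ligand genes on each array, knockout left and control right, with replicate numbers beside the points and the group mean and SD as bars. In each panel control replicate 1 lies above the other 9 arrays (8.26 for Ifit3 and 7.79 for Ifnl3).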

How the data were processed

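Total RNA of 10 samples was hybridised to 1-colour Affymetrix arrays, per the labels. The deposited log2 values were made by the authors with RMA, per the submitters' processing notes, without a version, and the log2 scale was judged from the values. The sorted values were identical in 9 arrays and within 0.00186 in the other, so no normalization was added. No source used here names the array design or genome build. Of 25428 probe sets, 24705 had 1 symbol, 0 several and 723 none. 1 symbol had a second, dimmer probe set, which was dropped. No column was left unused.

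The test was lmFit and eBayes of limma 3.58.1 (in R 4.3.3) over all 24704 genes, without covariates or filter, in both directions, with Benjamini-Hochberg adjustment and a threshold of 0.05. Group means carry ± SD (n = 5), differences ± SE. The p-values rest on the spread among 3-mouse pools, and 5 arrays per group limit the precision. On data simulated for this comparison (24704 genes, 10 runs), the share of altered genes recovered was 16% at 1.41-fold, 69.6% at 2-fold and 94.5% at 4-fold, and 4.49% of calls were false. Members and lists were chosen with earlier results of these data known. Values in every array were to be given for members past the threshold or with groups that do not overlap, and for the 3 of each class with the smallest p. From each pathway list come up to 4 genes past the threshold with the largest difference, or else the 2 of lowest p in a list without a call, and always Ifnar1, Ifnar2, Ifngr1, Ifngr2, Ifng and Gata4. Any other pathway gene is marked in the text as chosen after its values were seen, and single cell type markers were named after theirs were seen. Array values of Isg15, Ifit1, Ifit3, Rsad2 and Irf7 were added after they were seen. Promoter windows came from RefSeq (GRCm38.p6), and 27 members matched by symbol.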

Additional observations from a re-analysis of the deposited data

Results flagged for a closer look

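An array was marked where its gap to the nearest array of its group, over the group's range, passed Dixon's 95% critical value (0.71 for 5 arrays). Chance marks about 1 in 20 groups. Among the 72 groups of the 36 members 7 were marked, 3 of them control replicate 1. With the named pathway genes other than Phf11b, Sp100 and Psmb10, 13 of 128 groups were marked, 7 of them control replicate 1. Several of those genes were chosen after their values were seen, some for being high on that array. This count is therefore not set against chance. In control replicate 1 Ifit1 read 6.61 against 5.33 to 5.49 in the other controls, Ifit3 8.26 against 5.24 to 5.40, Ifnl2 8.21 against 5.28 to 5.63, Ifnl3 7.79 against 4.28 to 4.88, and Ifna15 7.38 against 3.74 to 4.14. Ifitm3 was high there as well, at 10.54 against 10.05 to 10.17, and Ddx58 was low, at 6.73 against 7.21 to 7.30.

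The other marked arrays were spread. Mx1 was high in control replicate 4 (2.70 against 1.79 to 2.05 in the others). Irf7 was low in control replicate 3 (6.37 against 6.71 to 6.84), and Bst2 in control replicate 2 (8.19 against 8.95 to 9.23). In the knockout group the marked array was replicate 2 each time, with Irgm1 low (6.12 against 6.56 to 6.67), Irf2bp2 high (7.55 against 7.35 to 7.40) and Ptpn6 high (7.01 against 6.32 to 6.52).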

How the results depend on the processing

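Under 15 alternatives no member passed: the counts of type I and gamma members higher and lower stayed 0, and the smallest adjusted p of a member was 0.0874 by limma, with array weights. The count over all genes ran from 287 to 737 when 1 array was left out, and was 1070 with array weights and 275 with the replicate number as a block. Same-numbered arrays did not deviate together (correlations of deviations from -0.165 to 0.0389), so no pairing by number was visible. Such correlations cannot show whether samples were handled in numbered pairs. The count of pathway genes past the threshold was 2, ran from 1 to 3 without 1 array, and was 1 with the replicate block, where Socs1 had an adjusted p of 0.0598, and 4 with array weights. The count of members whose groups did not overlap, 0 with all arrays, ran from 0 to 2 without 1 array. The share of all genes without overlap is not given for these settings, and smaller groups separate more easily by chance. The range of 0 to 2 is therefore not set against all genes. Medians without 1 array ran from -0.0558 to 0.0276 for type I and from -0.0896 to 0.0366 for gamma members. The sign held under every alternative for 22 members and turned for 14, all uncalled. Without 1 array, differences ran from -0.296 to 0.024 for Ifit1, -0.116 to 0.091 for Irf9, -0.145 to 0.042 for Stat2, -0.039 to 0.328 for Usp18, -0.117 to 0.113 for Gbp4, -0.106 to 0.041 for Gbp5, -0.16 to 0.032 for Gbp7, -0.065 to 0.043 for Ifi35, -0.008 to 0.233 for Oasl1, -0.046 to 0.182 for Cmpk2, -0.203 to 0.103 for Dhx58, -0.065 to 0.113 for Parp14, -0.008 to 0.076 for Herc6 and -0.095 to 0.137 for Igtp, and from -0.528 to 0.204 for Ifnl2. With array weights they were 0.04 for Irf9, -0.004 for Gbp4, -0.005 for Cmpk2, -0.003 for Parp14 and 0.069 for Ifnl2. The cause was not tested. No other background correction or normalization was tried, since scanner files were not used here, and differences under 2-fold were often missed on simulated data.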
